A study of Mus musculus with 2 samples.

Results

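Transcripts of 32 genes for lysosomal hydrolases and lysosomal membrane proteins were compared between aortic smooth muscle cells (SMCs) of mice labelled Tsc1-/- (KO) and of mice labelled Tsc1+/+ (Control). The 32 genes, out of 28000 features in each matrix, are a list of well-known lysosomal genes. The rule uses no expression value of these genes, but the list was chosen with earlier results of these data known. They comprise 11 proteases, 9 glycosidases (a class that here also takes in Sgsh, a sulfatase of heparan sulfate), 4 lipid enzymes and lipid carriers, 7 membrane proteins, and Grn, which encodes the lysosomal protein progranulin and stands on its own. The data were droplet single-cell libraries, 1 per genotype, from thoracic aortas of male C57BL/6 mice at 24 weeks of age. Both genotypes carried Myh11-CreERT2, a recombinase that tamoxifen switches on in smooth muscle, and the mT/mG reporter, in which a recombined cell changes from membrane tdTomato to membrane eGFP. The KO mice were also Tsc1 fl/fl, and mice of both genotypes received tamoxifen at 1.5 weeks. Viable GFP-positive cells were sorted, and no source used here states how many animals went into each library.

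Lysosomes are acidic compartments in which hydrolases take apart proteins, glycans, nucleic acids and lipids delivered by endocytosis, phagocytosis and autophagy. Most soluble hydrolases are glycoproteins that receive a mannose 6-phosphate tag in the Golgi and are carried to the lysosome by receptors for that tag, while membrane proteins such as Lamp1 and Lamp2 form the glycan-lined boundary. Tsc1 restrains the kinase complex mTORC1, which sits on the lysosomal surface when active. Transcription of many lysosomal genes is driven by TFEB, TFE3 and MITF, which bind an E-box variant named the CLEAR element.

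The promoters of the genes were searched on both strands for the letters TCACGTGA, the core of the CLEAR element, and for the E-box CACGTG that it holds, and both read the same on either strand. Windows ran from 250 bases before to 50 bases after annotated RefSeq starts on GRCm38.p6, and 28 of the 32 genes had an entry in the table used (all but Asah1, Ctsb, Ctsh and Npc1). Counting a gene once for any of its windows, 5 of the 28 genes held TCACGTGA (17.9%) and 12 held CACGTG (42.9%), against 1.12% and 8.09% of all 27025 genes in the table. A match is a description of these letters and not of binding. Among the 28 genes, CACGTG stood in 6 of the 18 that were at least 1.5 times higher in KO cells and in 6 of the other 10. For TCACGTGA these counts were 4 of the 18 and 1 of the other 10. Gla, higher in KO cells but under the level minimum used below, also held TCACGTGA and is not shown. The promoters that follow are those of Cln3, Ctsd and Mcoln1, with TCACGTGA and a higher level in KO cells, of Ctsa, with TCACGTGA at 2 places and a ratio under 1.5, and of Hexa, with a ratio of 3.37 and no match. Cln3 and Ctsa have a second annotated window, not shown. Capitals mark TCACGTGA, and each is written 5′ to 3′ on the strand of the gene: Cln3 from chr7:126583187-126583486 (minus), Ctsd from chr7:142387778-142388077 (minus), Mcoln1 from chr8:3500269-3500568 (plus), Ctsa from chr2:164833523-164833822 (plus) and Hexa from chr9:59539290-59539589 (plus).
Cln3: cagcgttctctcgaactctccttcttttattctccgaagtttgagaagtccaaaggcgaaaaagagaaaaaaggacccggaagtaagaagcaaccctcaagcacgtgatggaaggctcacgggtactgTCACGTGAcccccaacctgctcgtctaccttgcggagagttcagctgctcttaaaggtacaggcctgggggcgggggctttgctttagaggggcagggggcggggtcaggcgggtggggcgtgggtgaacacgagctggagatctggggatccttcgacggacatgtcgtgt
Ctsd: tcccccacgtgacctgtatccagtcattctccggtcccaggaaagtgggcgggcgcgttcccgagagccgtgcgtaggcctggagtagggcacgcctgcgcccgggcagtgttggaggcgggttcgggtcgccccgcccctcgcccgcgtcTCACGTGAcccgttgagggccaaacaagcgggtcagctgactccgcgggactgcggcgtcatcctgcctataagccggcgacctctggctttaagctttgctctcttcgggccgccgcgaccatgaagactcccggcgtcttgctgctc
Mcoln1: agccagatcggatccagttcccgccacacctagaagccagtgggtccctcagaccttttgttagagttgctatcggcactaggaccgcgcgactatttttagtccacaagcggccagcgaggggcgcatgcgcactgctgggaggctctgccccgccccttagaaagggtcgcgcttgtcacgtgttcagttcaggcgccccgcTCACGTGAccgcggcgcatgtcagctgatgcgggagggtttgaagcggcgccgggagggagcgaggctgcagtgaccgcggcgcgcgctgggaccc
Ctsa: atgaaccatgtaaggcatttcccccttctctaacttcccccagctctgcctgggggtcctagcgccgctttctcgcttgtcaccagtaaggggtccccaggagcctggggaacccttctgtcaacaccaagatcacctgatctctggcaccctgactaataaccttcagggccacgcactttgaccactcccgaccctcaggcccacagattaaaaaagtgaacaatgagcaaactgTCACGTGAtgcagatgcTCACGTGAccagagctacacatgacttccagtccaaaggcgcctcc
Hexa: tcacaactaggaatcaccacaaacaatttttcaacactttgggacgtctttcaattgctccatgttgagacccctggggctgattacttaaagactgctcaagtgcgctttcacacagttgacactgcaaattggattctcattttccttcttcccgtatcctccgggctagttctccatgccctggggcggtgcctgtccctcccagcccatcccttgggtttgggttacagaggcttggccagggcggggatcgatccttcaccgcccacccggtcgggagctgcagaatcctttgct
The marked motif began 122 bases before the start in Cln3, 99 in Ctsd and 46 in Mcoln1. In Ctsa the first copy began 13 bases before the start. Ctsf, the only member above the level minimum that was lower in KO cells, held CACGTG 79 bases before its start.

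Cells were kept with at least 5 eGFP UMIs (unique molecular identifiers, so that copies of 1 molecule count once), at least 500 genes and no more than 10% mitochondrial UMIs. Although both libraries were sorted for GFP, 17 KO and 350 control cells that passed the other limits had fewer than 5 eGFP UMIs. The limits left 1919 of 2097 KO cells with 30778165 UMIs and 1692 of 2095 control cells with 20011501 UMIs, at a median of 15012 and 11665 UMIs per cell. The median mitochondrial share was 5.73% in KO and 4.77% in control cells. At the eGFP limit, the 34 KO and 31 control cells with 5 to 9 eGFP UMIs gave 0.687% and 0.531% of their UMIs to the 32 genes, and the 5 KO and 20 control cells with 1 to 4 gave 0.679% and 0.718%. The libraries shared 16 cell barcodes, 4 of them with kept cells in both. Each of 6 SMC markers was detected, the lowest being Myocd with 39.7 counts per 1000000 UMIs (CPM) in KO cells and 61.8 in control cells. All 6 were lower in KO cells by the 1.5-fold limit given below, with sums of 17844 and 36716 CPM. Of 27 contractile genes, 26 had a mean of 10 CPM or more, and 23 of these were lower, against 10.8% of all 7720 genes at that level. The 27 summed to 32219 CPM in KO cells and 67432 in control cells. The 8 macrophage markers summed to 9.23 CPM in KO cells and 11.7 in control cells, with 2 of the 8 at 0 in each library. Tsc1 itself had 263 UMIs in KO cells and 191 in control cells, 8.55 and 9.54 CPM, a ratio of 0.895 (0.740 to 1.08). A droplet tag can lie outside the deleted part of a gene, so these counts do not check the genotype. Levels below are UMIs summed over the kept cells of a library and divided by its total, in CPM. Ranges in parentheses are exact 95% intervals (Poisson for a level, conditional binomial for a ratio) that cover counting error only, since 1 library per genotype allows no test and no replicate check. A gene was called higher or lower when the ratio of KO to control was at least 1.5 or at most 1/1.5.

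The lysosomal genes made up 0.767% of all UMIs in KO cells and 0.476% in control cells, a ratio of 1.61 (1.60 to 1.62). Of the 32 genes, 19 were higher in KO cells, 2 were lower and 11 lay between the limits. At a mean level of 10 CPM or more over both libraries, 18 of 30 members were higher and 1 was lower, where 11.8% and 10.8% of all 7720 genes at that level were. The median log2 ratio was 0.70 over all 32 members and -0.01 over those 7720 genes. The interval of the ratio lay above 1 for 27 members and below 1 for Ctsf, and it held 1 for Ctsb, Ctss, Npc1 and Grn. Fibroblast markers also differed: Pdgfra, Dpt, Pi16, Lum and Dcn summed to 635 CPM in KO cells and 40.9 in control cells, and their part in the result was not tested. Pi16 ran against the other 4, with 1 UMI in KO cells and 79 in control cells. Cd63 alone gave 20.0% of the members' UMIs in KO cells and 14.04% in control cells, and without it the summed ratio was 1.50 (1.49 to 1.51). Among members nearest the limit, Tpp1 (1.56) and Naglu (1.59) lay just inside and Psap (1.46) and Gusb (1.45) just outside.

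**Figure D1:**
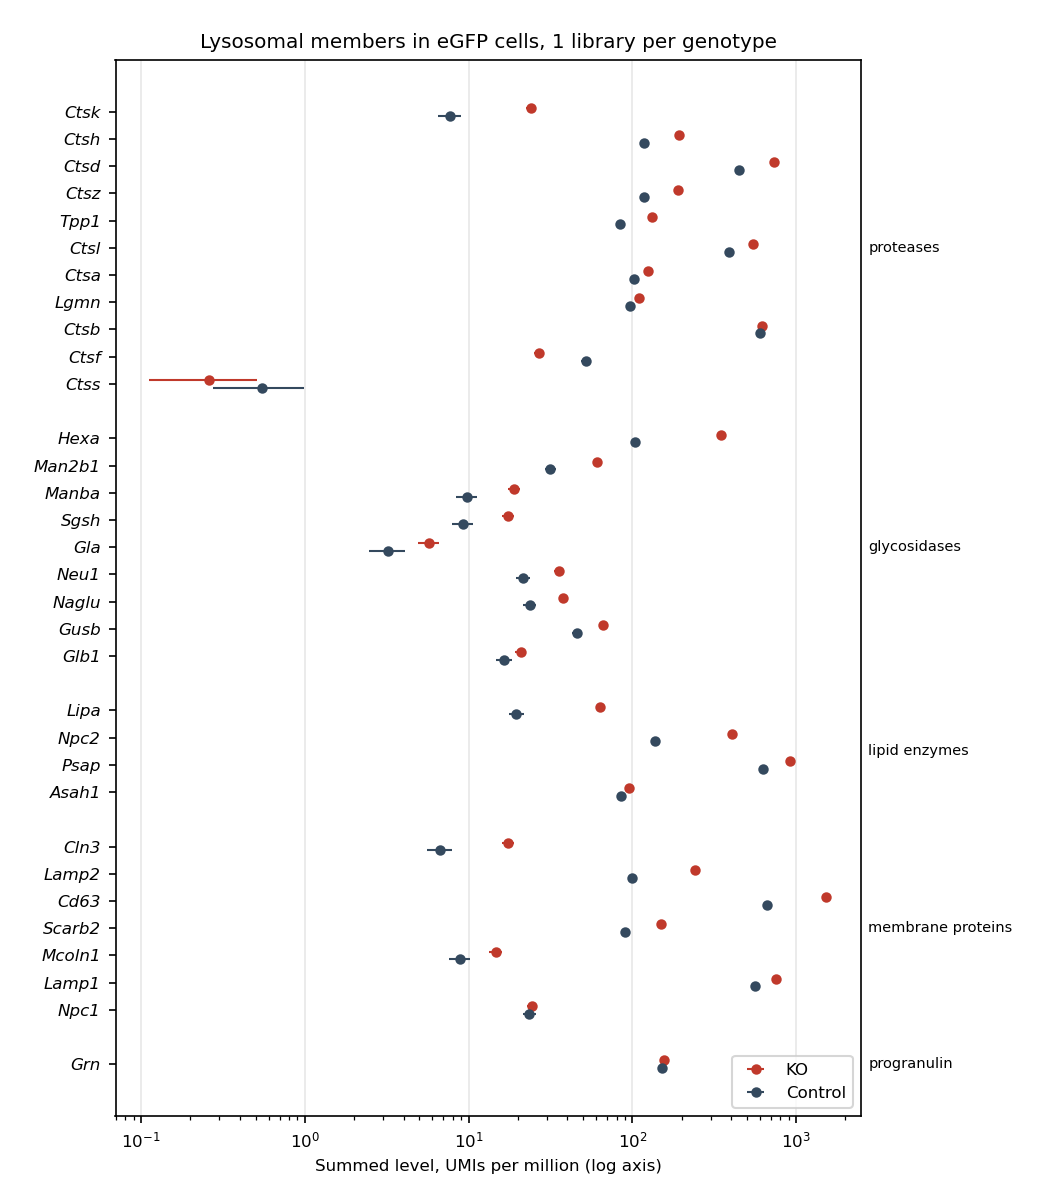
Level of each of the 32 lysosomal genes in KO cells (red, drawn above) and Control cells (dark blue), in CPM on a log axis, summed over cells with at least 5 eGFP UMIs; bars are 95% Poisson intervals of the counts and cover counting error only. Genes are grouped by class and ordered by ratio. The KO point lies to the right for most genes. It lies to the left for Ctsf, at 26.7 against 51.8, and for Ctss, on few UMIs, at 0.260 against 0.550.

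The proteases were the class with the smallest summed ratio of the 4 classes, 2690 CPM in KO cells and 2022 in control cells, or 1.33 (1.31 to 1.35), and its members went in different directions. Of 11 members 5 were higher, 2 lower and 4 between the limits. Ctsk encodes cathepsin K, the cysteine protease with which osteoclasts degrade collagen (chromosome 3, 95499256 to 95509362, GRCm38). It had 24.0 CPM (22.3 to 25.8) in KO cells and 7.70 (6.53 to 9.01) in control cells, a ratio of 3.12 (2.62 to 3.74). This was the largest ratio among the proteases, on 740 and 154 UMIs. Ctsd, the aspartic protease cathepsin D, had 731 CPM (722 to 741) in KO cells and 449 (440 to 459) in control cells, a ratio of 1.63 (1.59 to 1.67). The aminopeptidase cathepsin H, encoded by Ctsh, had 193 CPM in KO cells and 118 in control cells, a ratio of 1.63 (1.56 to 1.71). Cathepsin Z, a carboxypeptidase encoded by Ctsz, had 189 and 117, a ratio of 1.62 (1.54 to 1.70), and Tpp1, tripeptidyl peptidase 1, had 131 and 84.0, a ratio of 1.56 (1.48 to 1.66). These 4 ratios lay within 0.1 of each other.

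Ctsf (cathepsin F, chromosome 19, 4855130 to 4860918) ran the other way, with 26.7 CPM (24.9 to 28.6) in KO cells and 51.8 (48.7 to 55.1) in control cells, a ratio of 0.515 (0.470 to 0.565). Ctsb, which encodes the cysteine protease cathepsin B, had 616 CPM (608 to 625) in KO cells and 603 (592 to 614) in control cells. Its ratio of 1.02 (0.999 to 1.05) was the closest to 1 of the class. Ctsl, cathepsin L, had 544 CPM in KO cells and 391 in control cells, a ratio of 1.39 (1.35 to 1.43), which was 1.71 in cells with at most 5% mitochondrial UMIs. The serine carboxypeptidase cathepsin A, encoded by Ctsa, also shields the sialidase Neu1, and its ratio was 1.22 (1.15 to 1.28). Legumain (Lgmn), an asparaginyl endopeptidase that matures other cathepsins, had a ratio of 1.14 (1.08 to 1.21).

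Ctss encodes cathepsin S, the protease with which antigen-presenting cells trim the class II invariant chain. It had 8 UMIs in KO cells and 11 in control cells, 0.260 (0.112 to 0.512) and 0.550 (0.274 to 0.984) CPM, and the ratio of 0.473 (0.165 to 1.29) held 1. Almost all Ctss of the control library lay outside the eGFP cells: 1304 of its 1315 UMIs (99.2%) were in the 350 kept control cells with fewer than 5 eGFP UMIs, at 909 CPM. Those cells carried markers of several kinds of blood cell. The macrophage markers summed to 16663 CPM, the class II genes (Cd74, H2-Aa and H2-Ab1) to 14316 and the neutrophil markers to 11393. The T and NK cell markers summed to 2226 and the B cell markers to 1047. Over all kept cells, whatever their eGFP, Ctss had 23 UMIs in KO and 1315 in control cells, a ratio of 0.0122 (0.00768 to 0.0183). The same cells held 30.8% of the control library's Npc2 UMIs, 22.4% of Ctsh, 22.2% of Cln3 and 19.0% of Ctsz. Over all kept cells Ctsh had a ratio of 1.36 and Ctsz 1.41, both under 1.5, and Npc2 had 2.21 in place of 2.98.

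**Figure D2:**
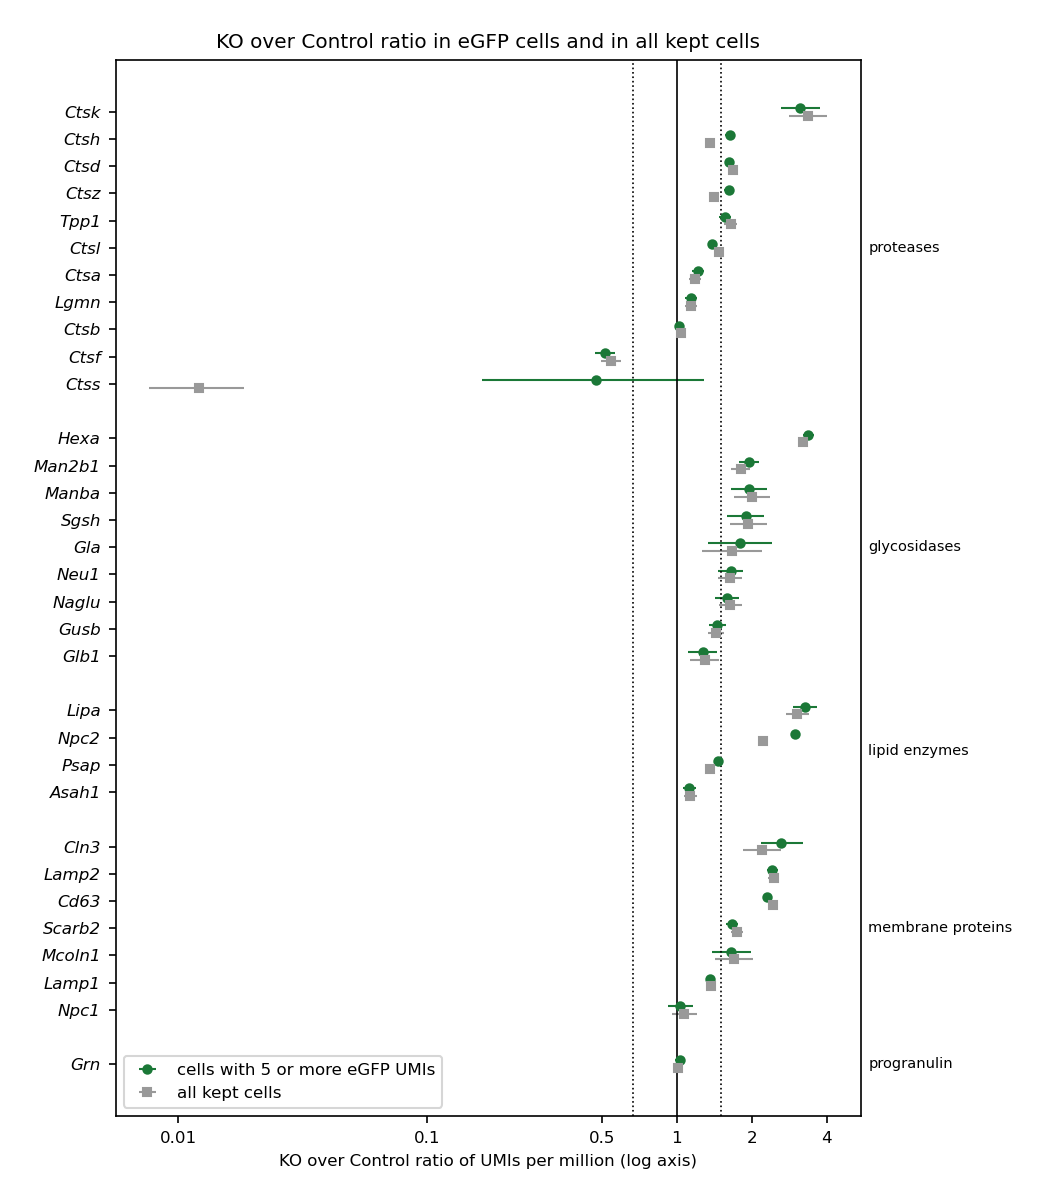
Ratio of KO to Control levels for each gene, on a log axis, in cells with at least 5 eGFP UMIs (green circles) and in all kept cells whatever their eGFP (grey squares); bars are exact 95% intervals for counting error, the solid line marks a ratio of 1 and the dotted lines 1.5 and 1/1.5. Ctss, Npc2, Ctsh, Ctsz and Cln3 move most between both populations of cells.

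The glycosidases were the class with the largest summed ratio, 611 CPM in KO cells and 264 in control cells, or 2.31 (2.25 to 2.39). Of 9 members 7 were higher and 0 lower, and all 9 intervals lay above 1. The sum leaned on Hexa, which gave 10695 of the class's 18792 UMIs in KO cells and 2061 of its 5278 in control cells. By the median log2 ratio of members, the lipid enzymes and carriers (1.06) stood above the glycosidases (0.84). Hexa, the alpha subunit of the beta-hexosaminidase that degrades GM2 ganglioside (chromosome 9, 59539540 to 59565109), had 347 CPM (341 to 354) in KO cells and 103 (98.6 to 108) in control cells. Its ratio of 3.37 (3.22 to 3.54) was the largest of the 32 genes in these cells, but not in every alternative. Ctsk was higher with no eGFP minimum (3.35 against 3.20) and with at most 5% mitochondrial UMIs (4.47 against 3.90). Lipa was higher after thinning (3.45 against 3.06) and as a mean of per-cell levels (3.17 against 3.15). It was also higher without the KO cells of lowest contractile share, a band described below (2.80 against 2.63). In the KO band of highest contractile share, Cln3 (2.46) and Cd63 (2.45) were above Hexa (2.40). The alpha-mannosidase gene Man2b1 had 61.1 CPM in KO cells and 31.5 in control cells, a ratio of 1.94 (1.77 to 2.13). Manba, the beta-mannosidase gene, had 18.9 and 9.74 CPM, a ratio of 1.94 (1.65 to 2.29).

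The class holds 3 enzymes that act on heparan sulfate. Sgsh, the N-sulfoglucosamine sulfohydrolase, had 17.4 CPM in KO cells and 9.19 in control cells, a ratio of 1.89 (1.60 to 2.25). Naglu, the alpha-N-acetylglucosaminidase, had 37.6 and 23.6, a ratio of 1.59 (1.43 to 1.77). Gusb (beta-glucuronidase), between the limits, had a ratio of 1.45 (1.34 to 1.57). The sialidase gene Neu1 had 35.4 CPM in KO cells and 21.5 in control cells, a ratio of 1.64 (1.47 to 1.84). Glb1 (beta-galactosidase) had 20.8 and 16.4, a ratio of 1.27 (1.11 to 1.45). Gla, the alpha-galactosidase gene, lay under the level minimum, with 176 UMIs in KO cells and 64 in control cells, a ratio of 1.79 (1.34 to 2.42).

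Of the 4 lipid enzymes and carriers, Lipa and Npc2 were higher, and Psap and Asah1 lay between the limits, with a summed ratio of 1.71 (1.68 to 1.74). Lipa, the acid lipase that frees cholesterol and fatty acids from their esters (chromosome 19, 34492318 to 34527474), had 63.8 CPM (61.0 to 66.7) in KO cells and 19.6 (17.7 to 21.6) in control cells, a ratio of 3.26 (2.92 to 3.64). Npc2, which takes up the freed cholesterol inside the lysosome (chromosome 12, 84754562 to 84773152), had 408 CPM (401 to 415) in KO cells and 137 (132 to 142) in control cells, a ratio of 2.98 (2.86 to 3.11). Npc1, the membrane protein to which Npc2 hands cholesterol for export, had 24.3 CPM in KO cells and 23.5 in control cells, and its ratio of 1.03 (0.920 to 1.16) held 1. Psap, the precursor of the saposins that present sphingolipids to their hydrolases, had 912 and 624 CPM, a ratio of 1.46 (1.43 to 1.49). Asah1, acid ceramidase, had 95.6 and 85.3, a ratio of 1.12 (1.05 to 1.19).

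Of the 7 membrane proteins 5 were higher and 0 lower, with a summed ratio of 1.88 (1.86 to 1.91). This sum leaned on Cd63, which gave 47129 of the class's 84194 UMIs in KO cells and 13369 of its 29112 in control cells. Cd63, a tetraspanin of late endosomes and secretory lysosomes, had 1531 CPM (1517 to 1545) in KO cells and 668 (657 to 679) in control cells, a ratio of 2.29 (2.25 to 2.34). Lamp2, whose splice form A serves chaperone-mediated autophagy (chromosome X, 38401357 to 38456454), had 242 CPM in KO cells and 100.04 in control cells, a ratio of 2.42 (2.30 to 2.54). Its relative Lamp1 had 756 and 558, a ratio of 1.35 (1.32 to 1.39), and the intervals of the 2 ratios did not meet. Cln3, the gene mutated in juvenile Batten disease, had 17.5 CPM in KO cells and 6.65 in control cells, a ratio of 2.63 (2.17 to 3.20) on 538 and 133 UMIs. Scarb2 (LIMP-2), an abundant protein of the lysosomal membrane, had 150 and 89.9 CPM, a ratio of 1.67 (1.58 to 1.76). Mcoln1, the calcium channel TRPML1, had 14.6 and 8.84, a ratio of 1.65 (1.39 to 1.98). Progranulin is cleaved in the lysosome to granulins, and Grn had 156 CPM (152 to 161) in KO cells and 153 (147 to 158) in control cells, a ratio of 1.03 (0.980 to 1.07) that held 1.

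For the 32 genes summed, most KO cells lay above the control median. After thinning each cell to 5000 UMIs, which left out 17 KO and 90 control cells, the 32 genes gave a median of 0.700% of a KO cell's UMIs (5th to 95th percentile 0.400% to 1.24%) and 0.460% of a control cell's (0.260% to 0.760%). Without thinning the medians were 0.695% and 0.458%. Of 1902 thinned KO cells, 1672 (87.9%) lay above the control median and 37.9% above the control library's 95th percentile. For the membrane proteins 88.4% of KO cells lay above the control median, and for the proteases 56.5%. Cells of 1 library are not replicates, and these shares describe the libraries.

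**Figure D3:**
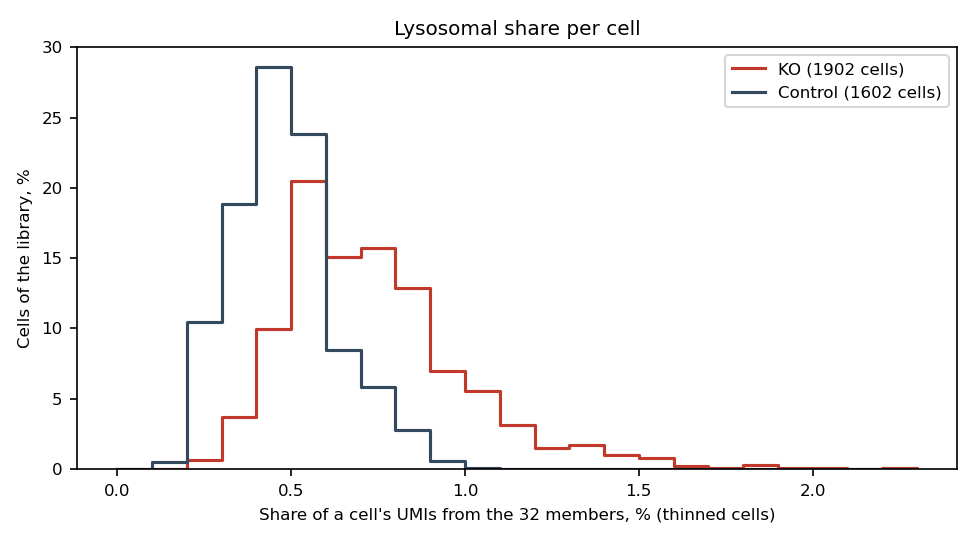
Distribution over cells of the share of UMIs that come from the 32 genes, in percent, after thinning each cell to 5000 UMIs; the y axis gives the percent of each library's thinned cells per bin, red for the 1902 KO cells and dark blue for the 1602 Control cells. The KO distribution is shifted to higher shares and has a longer upper tail, with medians of 0.700% and 0.460%.

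Cells of each library were then ordered by the share of their UMIs from 27 contractile genes of SMCs and cut into 3 bands of equal cell number, which are ranges of a score and not cell types. The median contractile share of the lowest, middle and highest band was 0.984%, 2.97% and 5.42% in KO cells and 4.65%, 6.44% and 8.34% in control cells. Because contractile genes themselves take up UMIs, levels in this paragraph are per 1000000 UMIs outside the contractile list. The 32 genes summed to 9024, 7115 and 7489 in the KO bands and to 5108, 4924 and 5263 in the control bands, so every KO band lay above every control band. This held for 23 of the 32 genes taken singly, against 18.9% of genes at a mean of 10 CPM or more, and the reverse held for Ctsf, against 25.6%. Ctsb, Ctsl, Ctss, Lgmn, Glb1, Asah1, Npc1 and Grn did neither. These counts compare levels without their intervals. For Naglu, Scarb2, Gusb, Manba and Sgsh, which are among the 23, the interval of the highest KO over the lowest control band held 1. Their ratios ran from 1.05 (0.861 to 1.27) for Naglu to 1.27 (0.925 to 1.75) for Sgsh.

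Within the KO library, 11 of 32 members were at least 1.5 times higher in the lowest than in the highest contractile band, against 9.19% of genes, and Ctss, on 2 and 4 UMIs, was the only one at 1/1.5 or less, against 10.1%. Ctsk had 41.0 per 1000000 in the lowest, 17.2 in the middle and 14.2 in the highest KO band, and 9.62, 7.01 and 8.29 in the control bands. Its ratio of lowest to highest KO band was 2.90 (2.39 to 3.53), the largest of the list. Npc2 had 617, 345 and 278 per 1000000 in the KO bands, against 154, 144 and 143 in the control bands. Hexa had 492, 306 and 262 in the KO bands, against 134, 103 and 98.5. Ctsd had 1002, 615 and 617 in the KO bands, against 432, 457 and 544, so its level was highest at the lowest contractile share in KO cells and at the highest share in control cells. Cd63 had 1601, 1394 and 1740 in the KO bands, against 652, 672 and 808, and Lamp1 had 787, 752 and 802, against 588, 589 and 615. Both genes were higher in every KO band than in any control band. In KO cells both were lowest in the middle band, and in control cells both were highest in the highest band. In the control library 3 members (Lipa, Npc1 and Cln3) were at least 1.5 times higher in the lowest band, where 11.3% of genes were, and 0 were lower, where 2.54% were. The fibroblast markers moved with the bands and summed to 1544, 202 and 77.9 CPM in the KO bands and to 96.6, 22.5 and 14.6 in the control bands, with none of the 5 at 0 in either library. Their part in the result was not tested. Without the lowest band of KO cells, an alternative added after seeing the data, 13 members were higher in place of 18 and the summed ratio was 1.47, with Ctsd, Ctsh, Ctsz, Naglu and Scarb2 under 1.5. The macrophage markers stayed between 8.08 and 15.2 CPM in all 6 bands.

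**Figure D4:**
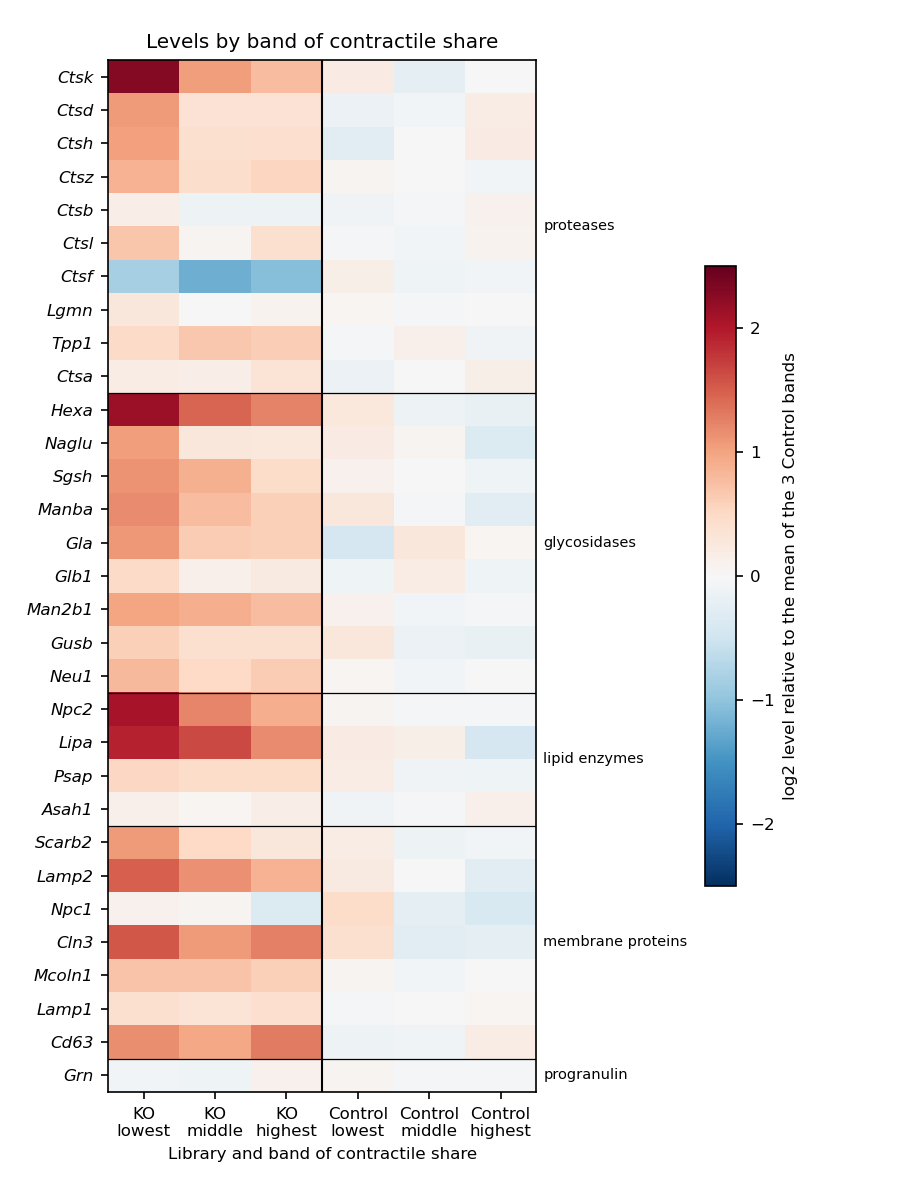
Level of 31 of the 32 genes (Ctss, with few UMIs, is left out) in the 3 bands of contractile share of the KO library (left) and of the Control library (right), as log2 of the level per 1000000 UMIs outside the contractile list relative to the mean of the 3 Control bands. Ctsk, Hexa, Npc2 and Lipa are darkest in the lowest KO band, Cd63 and Lamp1 are similar across KO bands, and Ctsf is below the Control level in all 3.

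Clustering of the cells on genes other than the 32 gave 6 clusters, each drawn almost wholly from 1 library, so that a cluster may stand for its library. The levels of the 32 genes, here in CPM, were 6776 in cluster 2 (1291 KO and 6 control cells) and 9288 in cluster 3 (522 KO and 2 control cells), which was led by Cytl1, Igf1, Dcn and Lum. Cluster 1 (3 KO and 1329 control cells) had 4537, and cluster 6, led by Des with 38 control cells, had 4166. Homeobox genes of the Dlx family were among the leading genes of cluster 5 (100 KO cells) and of cluster 4 (3 KO and 317 control cells). Cluster 5 had 9175 CPM of the 32 genes and cluster 4 had 5993. Hexa had 599 CPM in cluster 5 and 169 in cluster 4, Neu1 had 78.5 and 35.0, and Lipa 108 and 26.5. Cathepsin F was higher in these clusters of either library: Ctsf had 49.5 in cluster 5 and 23.0 in cluster 2, both of KO cells, and 86.1 in cluster 4 and 45.4 in cluster 1, both of control cells.

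The authors' deposited table of averages per cluster and library, in mean counts per 10000, gave the 32 genes together 62.2, 61.2, 90.1, 77.7 and 57.2 in the KO columns of clusters 0, 1, 2, 3 and 4. The control columns of the same clusters had 46.8, 45.9, 60.5, 23.4 and 61.1 in the authors' deposited table. The KO column was higher in 4 of these 5 clusters and lower in cluster 4. Clusters 6 and 7 also have columns of both libraries in the authors' deposited table, with eGFP near 0: there the 32 genes had 37.8 in the KO and 53.5 in the control column of cluster 6, and 31.7 and 21.6 in cluster 7. Cluster 3 of the control library had eGFP at 9.73 per 10000 in the authors' deposited table, where the other columns of clusters 0 to 4 had 35.4 or more. No source used here states how many cells stand behind each column.

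Of 32 further lysosomal enzymes, 28 had a mean of 10 CPM or more, and of these 9 were higher and 2 lower in KO cells, with a median log2 ratio of 0.28. For this list and those that follow, the shares over all 7720 genes at that level are again 11.8% higher and 10.8% lower. Fuca1 (alpha-fucosidase) had 201 CPM in KO cells and 69.1 in control cells, a ratio of 2.91 (2.74 to 3.09). Hyal1, a hyaluronidase, had 15.0 CPM in KO cells and 23.3 in control cells, a ratio of 0.645 (0.566 to 0.735), and Naaa, an amidase of N-acylethanolamines, had 8.80 and 15.0, a ratio of 0.587 (0.497 to 0.695). Among 11 of 16 further lysosomal membrane proteins at that level, 2 were higher and 0 lower, and with so few genes this is near the shares of 11.8% and 10.8% over all genes. The 2 were Tmem192, with a ratio of 4.00 (3.37 to 4.76), and Litaf, with 2.59 (2.34 to 2.87).

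Enzymes are routed to the lysosome by further genes. Of 13 genes of mannose 6-phosphate and sortilin targeting, 11 had the level and 5 were higher and 0 lower, against 11.8% and 10.8% of all genes, with a median log2 ratio of 0.12. Gnptab, the enzyme that adds the phosphate tag, had 18.7 CPM in KO cells and 8.79 in control cells, a ratio of 2.12 (1.79 to 2.53). Igf2r, the large mannose 6-phosphate receptor, had 54.8 and 28.7, a ratio of 1.91 (1.74 to 2.10), while M6pr, the small receptor, had 56.8 and 67.3, a ratio of 0.844 (0.786 to 0.907). Of the cystatins, inhibitors of the cysteine cathepsins, 2 of 8 genes had the level and both were higher. Cst3 (cystatin C, secreted) had 8378 CPM in KO cells and 1986 in control cells, a ratio of 4.22 (4.17 to 4.26), and Cstb (cystatin B, cytosolic) had 389 and 173, a ratio of 2.25 (2.17 to 2.34). Of the other 6 cystatin genes of the list, Cst6 had 572 UMIs in KO cells and 14 in control cells, and 5 had 0 UMIs in both libraries.

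**Figure D5:**
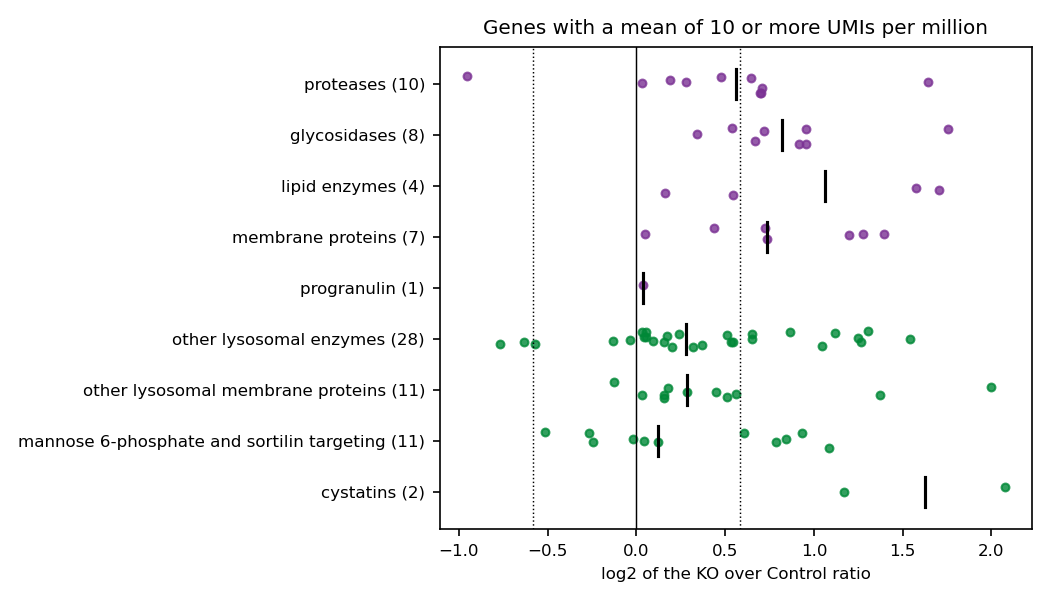
log2 of the KO to Control ratio for genes with a mean of 10 CPM or more, by class of the 32 genes (purple) and for the other lysosomal lists (green), with the number of genes in parentheses; black bars are medians, the solid line is no difference and dotted lines are a ratio of 1.5 and 1/1.5. The other lysosomal enzymes and membrane proteins have medians of 0.28 and 0.29.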

How the data were processed

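The authors deposited raw UMI counts per gene and cell for 1 KO and 1 control library. The submitters' processing notes name the build mm10 and the tools Seurat 2.0, Cell Ranger and bcl2fastq. No source used here states how cells were called. The authors' table of averages was read as mean counts per 10000, from column sums of 10000. The 32 members, the gene lists and the comparisons were chosen with earlier results of these data known. All members past 1.5-fold and the member of each class closest to a ratio of 1 are named, with up to 3 genes at either end of each other list. M6pr and Cst6 were named after their values were seen; a few others at the ends of these lists are not reported here.

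Counts were summed over kept cells in Python 3.11.15 with numpy 2.4.6, scipy 1.17.1 and pandas 2.3.3, and levels are summed UMIs over the library total. A total of 3 counts, the floor for a count of 0, equal 0.0975 CPM in KO and 0.150 in control cells. The ratio and its interval were tried on Poisson counts simulated from the control profile. Such counts hold no variation between cells, animals or libraries, so the trial covers counting error only. Cells were clustered with scanpy 1.11.5 and leidenalg 0.10.2 on 2000 variable genes, 30 components, 15 neighbours and resolution 0.5, without the members. Scrublet marked 0 KO and 1 control cell among those kept as doublets, so doublets were in effect not removed. Gene positions are from GENCODE M21 (GRCm38, the build mm10). Exons of other annotated genes overlap those of Ctsd, Ctsl and Glb1 on the same strand and of Ctsa, Ctsb, Ctsl, Ctsz, Hexa, Sgsh, Lamp1, Npc1, Cln3 and Grn on the other. No source used here states whether counting used strand, so these values are uncertain to that extent. A level is a share of the library total and moves when other genes do.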

Additional observations from a re-analysis of the deposited data

How the results depend on the processing

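No paired analysis was possible because each genotype has 1 library, and for the same reason none could be left out. Of the members at 10 CPM or more, 18 were higher and 1 was lower in KO cells. A limit of 2-fold gave 7 and 0, a mean of at least 50 CPM gave 9 and 0, no level minimum gave 19 and 2, and no eGFP minimum gave 16 and 2; the 2-fold limit and the higher level minimum call or test fewer genes by construction. In all other alternatives the counts ranged from 12 to 19 higher, with 1 lower. The summed ratio of 1.61 became 1.58 with no eGFP minimum, 1.63 with at least 20 eGFP UMIs, 1.78 with at most 5% mitochondrial UMIs, 1.63 with a total free of abundant, contractile, mitochondrial and ribosomal genes, and 1.55 both as a mean of per-cell levels and after thinning; the cause was not tested. Added after seeing the data, KO cells of the highest contractile band against all control cells gave 12 higher and a summed ratio of 1.48, and KO cells without the lowest band gave 13 and 1.47. Over single members, 331 of 416 alternative ratios stayed within the counting interval, and 85 moved outside it. Ctsb, Npc1 and Grn, whose intervals held 1, crossed to below 1 in some alternatives, down to 0.915, 0.820 and 0.961, and no member called higher or lower crossed 1 in the alternatives run. The alternative based on the authors' averages was not run, since cells per cluster are not given. Scaling by median of ratios moved the median log2 ratio of all genes by less than 0.1, as did every other scaling tried.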
